A study of Mus musculus with 12 samples.

Results

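The 9 genes described here encode members of the glucose transporter family and enzymes that run or regulate the early steps of glycolysis. They are the transporters Slc2a1 and Slc2a6, the hexokinases Hk1, Hk2 and Hk3, the phosphofructokinases Pfkl, Pfkm and Pfkp, and the bifunctional enzyme Pfkfb3. They were taken as a named list by gene symbol, and each had 1 row in each of the 3 comparison tables, out of 21893 genes listed at 4 h, 21923 at 24 h and 23248 at 3 d. All 9 had an adjusted p-value in all 3 tables, so none was lost to a filter on low values. The genes were chosen by function, with earlier results of these data known.

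The RNA came from bone marrow-derived macrophages, cells grown from marrow of male C57BL/6 mice aged 8 to 16 weeks. They were cultured for 7 days with M-CSF, the growth factor of this lineage, at 10 ng/mL, and M-CSF stayed in the medium of every group. Monophosphoryl lipid A (MPLA) is a detoxified lipid A that acts on Toll-like receptor 4, and every group held 3 libraries. The groups were unexposed controls, a 4 h exposure, a 24 h exposure, and cells taken 3 d after priming had ended. MyD88-/- and TRIF-/- males are also mentioned in the growth protocol, but all 12 libraries carry the strain C57BL/6 and none is labelled as mutant. The labels leave unsaid how long the last group was exposed, when the controls were taken, and whether the libraries of a group were separate mice or dishes, so the p-values may measure technical spread. The 3 comparisons share the same 3 controls.

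Glucose enters cells through facilitative transporters of the Slc2a family and is trapped by hexokinases as glucose phosphate. Phosphofructokinase then makes the first step that commits the sugar to glycolysis, and Pfkfb3 makes the fructose bisphosphate that activates it. Macrophages that meet bacterial lipids are known to take up more glucose and to run glycolysis faster. Most of these steps can be served by several isozymes, which differ in tissue, location in the cell and regulation.

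Each value is a log2 change of MPLA over control that the authors' deposited tables give under DESeq2, except where edgeR stands beside it. The tables hold no value per library and no level, so neither replicate values nor the order of the genes by abundance can be given, and whether fewer cells or less RNA per cell lay behind a change cannot be told apart. The error given is a standard error implied by the deposited p-value, read as a two-sided Wald test. Where p was stored as 0, only an upper limit of that error can be given. The 3 tables were normalized separately, so values at different times are set side by side and their differences were not tested. Over all tested genes the median change was -0.04 at 4 h, -0.05 at 24 h and -0.02 at 3 d under DESeq2 in the authors' deposited tables, and -0.97, -0.46 and -0.15 under edgeR. For the 9 genes the edgeR value lay below the DESeq2 value by nearly the same amount, at -0.94 to -0.93 at 4 h, -0.41 at 24 h and -0.13 to -0.12 at 3 d. Set against the edgeR values, the unscaled ratios implied libraries 0.859 times as deep as the controls at 4 h, 0.934 times at 24 h and 2.32 times at 3 d. Against the DESeq2 values, the unscaled ratios of the 9 genes lay at -1.16 to -1.14, at -0.52 to -0.50 and at 1.08 to 1.11 on the log2 scale, so the depth read this way depends on the scaling.

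Upstream windows of a few of these genes are printed because the genes they precede differed in direction: Slc2a6 had the largest rise of the 9 at 4 h and 24 h, Hk2 and Hk3 rose at both times, and Pfkm was lower at every time. Each is the 250 bases before the RefSeq start on GRCm38.p6, on the gene's strand, and none of these windows overlaps an exon of GENCODE M21. Capitals mark ACGTG or GCGTG, the core letters of hypoxia response elements, on either strand (CACGT or CACGC when read on the printed strand), and CACGTG, the E-box, which contains ACGTG on both strands.
Slc2a6, chr2:27027999-27028248, minus strand: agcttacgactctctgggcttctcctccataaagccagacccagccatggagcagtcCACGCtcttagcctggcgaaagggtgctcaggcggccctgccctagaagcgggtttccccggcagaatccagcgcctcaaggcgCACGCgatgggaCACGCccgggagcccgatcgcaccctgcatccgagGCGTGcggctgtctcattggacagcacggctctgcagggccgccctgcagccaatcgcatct
Hk2, chr6:82774455-82774704, minus strand: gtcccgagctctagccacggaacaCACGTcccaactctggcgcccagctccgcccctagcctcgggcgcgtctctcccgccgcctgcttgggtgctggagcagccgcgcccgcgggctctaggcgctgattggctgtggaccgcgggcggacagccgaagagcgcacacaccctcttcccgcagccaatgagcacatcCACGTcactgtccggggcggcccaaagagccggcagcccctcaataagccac
Hk3, chr13:55021386-55021635, minus strand: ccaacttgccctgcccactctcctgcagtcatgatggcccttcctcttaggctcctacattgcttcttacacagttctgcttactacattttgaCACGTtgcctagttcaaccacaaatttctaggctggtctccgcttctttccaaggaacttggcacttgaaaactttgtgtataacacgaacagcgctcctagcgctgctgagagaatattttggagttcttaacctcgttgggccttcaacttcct
Pfkm, chr15:98092339-98092588, plus strand: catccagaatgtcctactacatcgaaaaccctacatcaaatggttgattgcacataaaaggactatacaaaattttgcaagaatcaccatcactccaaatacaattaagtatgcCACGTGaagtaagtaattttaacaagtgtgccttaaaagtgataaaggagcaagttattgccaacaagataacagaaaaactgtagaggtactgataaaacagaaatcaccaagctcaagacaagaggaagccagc

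The window of Slc2a6 held 4 matches to GCGTG and none to ACGTG, and 65.2% of its bases were G or C. That of Hk2 held 2 matches to ACGTG with 69.6% G or C, and that of Hk3 held 1 with 47.2%. The Pfkm window, which precedes the furthest upstream of the 4 RefSeq starts of that gene, held an E-box and 36.4% G or C. The median over all promoters was 52.4%. The other windows of Pfkm had 51.2%, 60.4% and 52.8% G or C and no E-box. RefSeq gave 14 start windows for the 9 genes, of which 7 held ACGTG, against 16.6% of all 32851 windows of this length, and 8 held GCGTG, against 28.2%. Windows of 1 gene can overlap, and a single GCGTG site of Pfkm is counted in 2 of those 8. The shares of all windows were not matched for G or C content. ACGTG was found for Slc2a1, Hk2, Hk3, Pfkm and Pfkfb3, so it lay before genes that were higher and before Pfkm, which was lower. The E-box was in 2 of the 14 windows, those of Pfkm and Pfkfb3, against 6.02% of all. The core of the interferon element (ISRE), the AP-1 motif TGANTCA, the CRE motif TGACGTCA and the TATA box TATAAA were in none of the 14 and in 2.98%, 6.75%, 1.55% and 12.4% of all windows. A kappaB motif and the GAS motif TTCNNNGAA were each in 1 window, both of Pfkm, against 7.25% and 7.02% of all. The GC box GGGCGG was in 6 windows, against 32.7%. All motifs were searched on both strands, and a match is only a run of letters.

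At 4 h, 8 of the 9 genes were higher and 1 was lower at a DESeq2 adjusted p under 0.05 in the authors' deposited table, where 31.8% of all tested genes were higher and 31.0% lower. The median of the 9 was 2.14, between -2.08 for Pfkm and 5.24 for Slc2a6. In the edgeR columns 7 were higher and 2 lower, against 13.5% and 50.1% of all genes, the second lower gene being Pfkl. At 24 h, 8 were again higher and Pfkm lower in the authors' deposited table, against 32.4% and 32.2% of all tested genes, with a median of 1.16. With edgeR 7 were higher and 1 lower at 24 h, against 16.2% and 41.8%. At 3 d, 7 were higher and Pfkm lower, against 29.5% and 25.8% of all tested genes in the authors' deposited table, with a median of 0.49, and Hk2 was not called. The edgeR columns gave the same 7 and 1 at 3 d, against 15.5% and 27.7%. Each of the 9 genes lay closer to 0 at 3 d than at 4 h in the authors' deposited tables, and the 3 d values ran from -0.44 for Pfkm to 2.18 for Pfkfb3. The DESeq2 values of all tested genes also spread less at 3 d, and the share of them that lay closer to 0 was not counted. The gap was small for Pfkl (0.53 at 4 h and 0.43 at 3 d) and, with edgeR, for Hk1 (0.48 and 0.46).

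**Figure D1:**
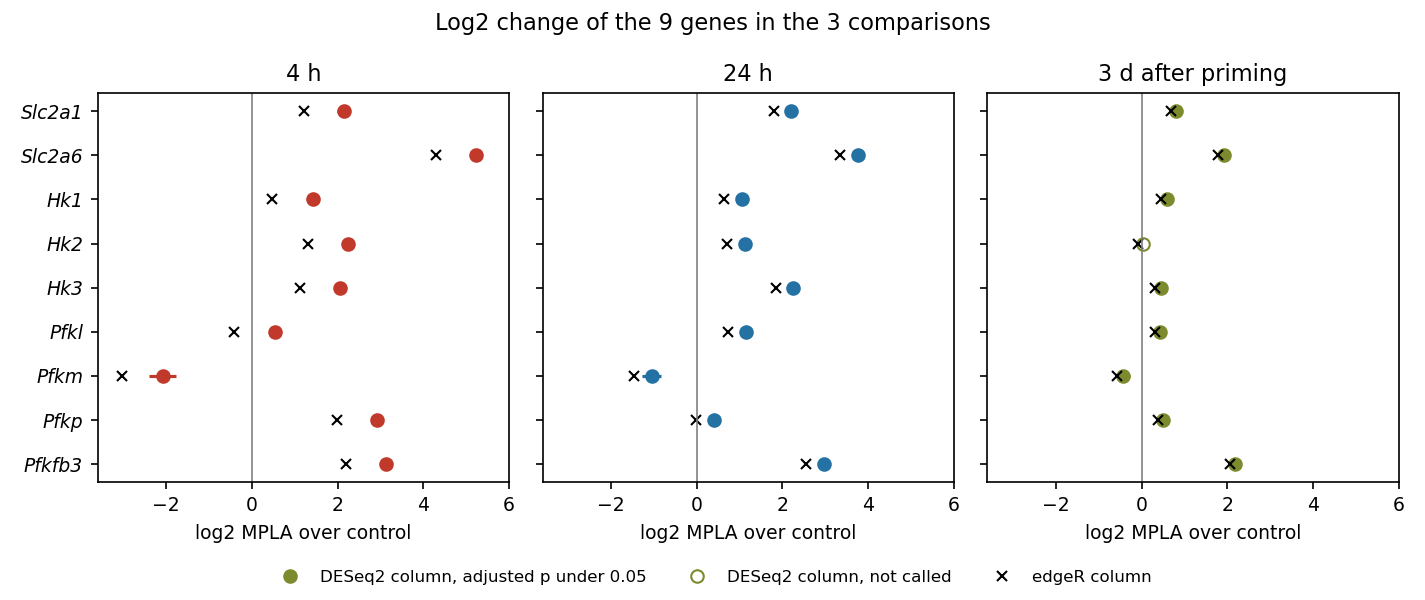
Log2 change of MPLA over control (x axis) for each of the 9 genes (y axis) at 4 h, 24 h and 3 d after priming. Filled circles are DESeq2 values called at an adjusted p under 0.05, the open circle is not called, bars are 95% intervals where the deposited p was above 0 (mostly narrower than the circle), and crosses are edgeR values. Pfkm lies left of 0 in every panel with both tools, Slc2a6 and Pfkfb3 lie furthest right, and Hk2 sits at 0.04 at 3 d.

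The transporter genes rose at every time. Slc2a6 encodes GLUT6, a family member found largely on membranes inside the cell. In the authors' deposited table for 4 h it was 37.7-fold higher (log2 5.24, standard error at most 0.140, DESeq2 p stored as 0), and 19.7-fold with edgeR. At 24 h Slc2a6 was 13.6-fold higher (log2 3.76, standard error at most 0.100) and at 3 d 3.77-fold (log2 1.91, at most 0.051), both with p stored as 0 in the authors' deposited tables. Its change ranked 312 from the top among 17523 tested genes at 4 h, 406 among 16442 at 24 h and 333 among 15111 at 3 d. Those ranks are the top 1.78%, 2.47% and 2.20% of the tested genes. Slc2a1 encodes GLUT1, the main glucose transporter of the plasma membrane in many cells. In the authors' deposited tables Slc2a1 stood at log2 2.14 ± 0.080 (SE) at 4 h (4.42-fold, DESeq2 adjusted p = 9.90e-157) and 2.21 ± 0.070 at 24 h (4.62-fold, 4.46e-220). At 3 d Slc2a1 stood at 0.81 ± 0.072 there, or 1.76-fold with a 95% interval of 1.59 to 1.94 (DESeq2 adjusted p = 1.26e-28). The edgeR values of Slc2a1 were 1.21 at 4 h (2.31-fold), 1.80 at 24 h (3.48-fold) and 0.69 at 3 d, so the DESeq2 values at 4 h and 24 h are close to each other and the edgeR values are not. The largest value of Slc2a6 was that at 4 h with both tools. The difference between the 2 genes within a table does not depend on the scaling. It was 3.09 at 4 h, 1.56 at 24 h and 1.10 at 3 d on the log2 scale, so the Slc2a6 ratio exceeded that of Slc2a1 8.53, 2.94 and 2.15 times.

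Slc2a6 lies on chromosome 2 from 27021363 to 27027998 (ENSMUSG00000036067) and Slc2a1 on chromosome 4 from 119108711 to 119137983 (ENSMUSG00000028645), both on GRCm38. Slc2a6 shared no exonic base and no 50-base window with other genes. For Slc2a1 the antisense gene Gm12868 covered 2.99% of the exonic bases.

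All 3 hexokinase genes rose during exposure, and 2 of them were still called at 3 d. Hk1 encodes the broadly expressed isozyme that sits on the outer mitochondrial membrane. Its log2 change was 1.42 ± 0.051 at 4 h (2.67-fold, 95% interval 2.50 to 2.86), 1.06 ± 0.048 at 24 h (2.08-fold) and 0.59 ± 0.045 at 3 d (1.51-fold, 1.42 to 1.60) in the authors' deposited tables, with DESeq2 adjusted p of 7.27e-171, 4.06e-108 and 8.85e-38. Hk1 thus had the smallest rise of the hexokinases at 4 h and the largest at 3 d. Hk2 encodes the inducible isozyme, also bound to mitochondria. It was 4.72-fold higher at 4 h (log2 2.24, standard error at most 0.060, DESeq2 p stored as 0) and 2.18-fold at 24 h (1.12 ± 0.056, DESeq2 adjusted p = 2.53e-87) in the authors' deposited tables. At 3 d Hk2 stood at 0.04 ± 0.055 with a 95% interval of -0.07 to 0.15, or 0.954-fold to 1.11-fold, and a DESeq2 adjusted p of 0.578. The edgeR value of Hk2 was -0.09 with an adjusted p of 0.122 in the authors' deposited table. Hk3 encodes the isozyme that is abundant in myeloid cells and lacks the mitochondrial anchor. It stood at 2.05 at 4 h (4.15-fold, standard error at most 0.055, DESeq2 p stored as 0), at 2.25 ± 0.070 at 24 h (4.76-fold, 4.33 to 5.23) and at 0.44 ± 0.047 at 3 d (1.36-fold, DESeq2 adjusted p = 4.80e-20) in the authors' deposited tables.

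The order of the hexokinase genes was not the same in the 3 tables. Relative to Hk1, the change of Hk2 was 0.82 larger at 4 h on the log2 scale, 0.06 larger at 24 h and lower at 3 d, at -0.55. For Hk3 the same differences from Hk1 were 0.63, 1.19 and -0.15. At 4 h Hk2 and Hk3 both exceeded Hk1, at 24 h only Hk3 stood clear of the other two, and at 3 d Hk1 was highest. These differences carry no test. Hk1 (chromosome 10, 62268855 to 62379908, ENSMUSG00000037012) overlapped the antisense gene Hk1os over 1.84% of its exonic bases, and Hk3 (chromosome 13, 55005985 to 55021385, ENSMUSG00000025877) overlapped Unc5a over 0.923%. Hk2 (chromosome 6, 82725025 to 82774454, ENSMUSG00000000628) overlapped no exon.

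The 3 phosphofructokinase genes did not move together. Phosphofructokinase works as a tetramer that can mix the liver (Pfkl), muscle (Pfkm) and platelet (Pfkp) subunits. Pfkp was 7.58-fold higher at 4 h in the authors' deposited table (log2 2.92, standard error at most 0.078, DESeq2 p stored as 0), and 3.96-fold with edgeR. By 24 h Pfkp stood at 0.40 ± 0.056 (1.32-fold, DESeq2 adjusted p = 6.20e-12) in the authors' deposited table, but at -0.02 with edgeR (adjusted p = 0.778), so this call did not hold with both tools. At 3 d Pfkp was at 0.49 ± 0.051 (1.41-fold, 95% interval 1.31 to 1.51) in the authors' deposited table, where the DESeq2 adjusted p was 1.59e-21. The largest value of Pfkp was thus that at 4 h. Pfkl had its largest value at 24 h, with 0.53 ± 0.065 at 4 h (1.44-fold, DESeq2 adjusted p = 2.18e-15), 1.16 ± 0.050 at 24 h (2.23-fold, 9.55e-116) and 0.43 ± 0.050 at 3 d (1.35-fold, 1.09e-16) in the authors' deposited tables. At 4 h the sign of Pfkl turned with the scaling, since the edgeR value was -0.41 with an adjusted p of 2.16e-14 in the authors' deposited table. Relative to the median of all tested genes Pfkl stood at 0.57 at 4 h.

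Pfkm was the only gene of the 9 that was lower in every table, with DESeq2 and with edgeR. At 4 h the authors' deposited table put it at -2.08 ± 0.158 (4.22-fold lower, DESeq2 adjusted p = 6.20e-39), and at -3.02 with edgeR. The values were -1.05 ± 0.110 at 24 h (2.07-fold lower, 5.68e-21) and -0.44 ± 0.082 at 3 d (1.36-fold lower, 3.38e-07) in the authors' deposited tables, with DESeq2 adjusted p in parentheses. At 3 d the baySeq column of the authors' deposited table gave Pfkm a likelihood of no change of 0.955, so that tool did not call it. The standard errors of Pfkm were the largest of those that could be derived, yet each 95% interval lay below 0. At 4 h 10.9% of tested genes had a change as low as Pfkm or lower, and at 3 d 19.4% did.

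Within each table the split among the subunits can be read without the scaling. Pfkp exceeded Pfkm by 5.00 on the log2 scale at 4 h, a 32.0-fold shift in their ratio, by 1.45 (2.73-fold) at 24 h and by 0.93 (1.91-fold) at 3 d. Against Pfkl, Pfkm was at -2.61, -2.21 and -0.87. Against Pfkl, Pfkp was 2.39 higher at 4 h, lower at 24 h (-0.76) and nearly level at 3 d (0.07). The ratio of platelet to liver subunit transcripts was therefore 5.26 times that of the controls at 4 h and 0.591 times at 24 h. The edgeR columns gave all 18 differences between members, over 6 pairs and 3 times, within 0.006 of these. That follows from the nearly constant gap between the tools and is no separate check.

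**Figure D2:**
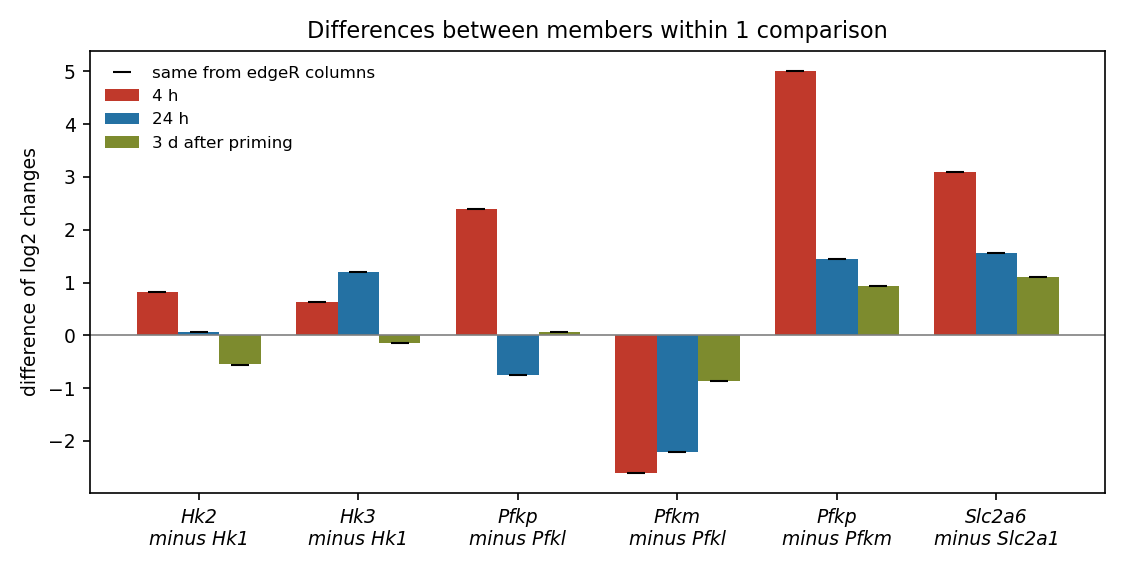
Difference of the log2 changes (y axis) of 2 genes within a table, for 6 pairs of genes (x axis), at 4 h (red), 24 h (blue) and 3 d after priming (olive). Bars start at 0 and have no error because the tables hold no values per library, and the black marks are the same differences from the edgeR columns. Pfkp minus Pfkm reaches 5.00 at 4 h, and Pfkp minus Pfkl, Hk2 minus Hk1 and Hk3 minus Hk1 change sign between times.

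Parts of these genes overlap other genes, and the strand setting of the authors' counting was not given in the sources used here. Pfkm (chromosome 15, 98092589 to 98132451, ENSMUSG00000033065) shared 8.83% of its 50-base windows with Gm26513, a gene on the same strand that was at 0.07 at 4 h, -1.80 at 24 h and 0.13 at 3 d in the authors' deposited tables and was not called with DESeq2 at these times (adjusted p = 0.956, 0.118 and 0.837). On the opposite strand Senp1 (1.04, 0.74 and 0.23 at the 3 times, each called with DESeq2 in the authors' deposited tables) covered 0.539% of the exonic bases of Pfkm. The exons of Pfkp (chromosome 13, 6579768 to 6648777, ENSMUSG00000021196) overlapped those of Pitrm1 on the opposite strand over 5.58% of their bases. Pitrm1 was itself higher at 4 h (1.44, DESeq2 adjusted p = 1.17e-165), not called at 24 h (0.09), and called at 3 d (0.12, 0.0340), in the authors' deposited tables. Gm26513, Senp1 and Pitrm1 were named after their values were seen, and their part in the Pfkm and Pfkp values was not tested. Pfkl lies on chromosome 10 from 77986947 to 78010083 (ENSMUSG00000020277) and overlapped no exon of another gene.

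Pfkfb3 was more than 4-fold higher in all 3 tables with DESeq2 and with edgeR. The gene (chromosome 2, 11471433 to 11554077, ENSMUSG00000026773) encodes a bifunctional enzyme whose kinase activity far outweighs its phosphatase activity. In the authors' deposited tables Pfkfb3 was 8.71-fold higher at 4 h (log2 3.12, standard error at most 0.083), 7.79-fold at 24 h (2.96, at most 0.079) and 4.54-fold at 3 d (2.18, at most 0.058), each with a DESeq2 p stored as 0. The edgeR values of 2.19, 2.55 and 2.06 were all called as well. Its rank from the top went from 1087 among 17523 tested genes at 4 h to 645 among 16442 at 24 h and 250 among 15111 at 3 d. At 3 d it was above Slc2a6, which had been the higher of this pair at 4 h and 24 h.

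**Figure D3:**
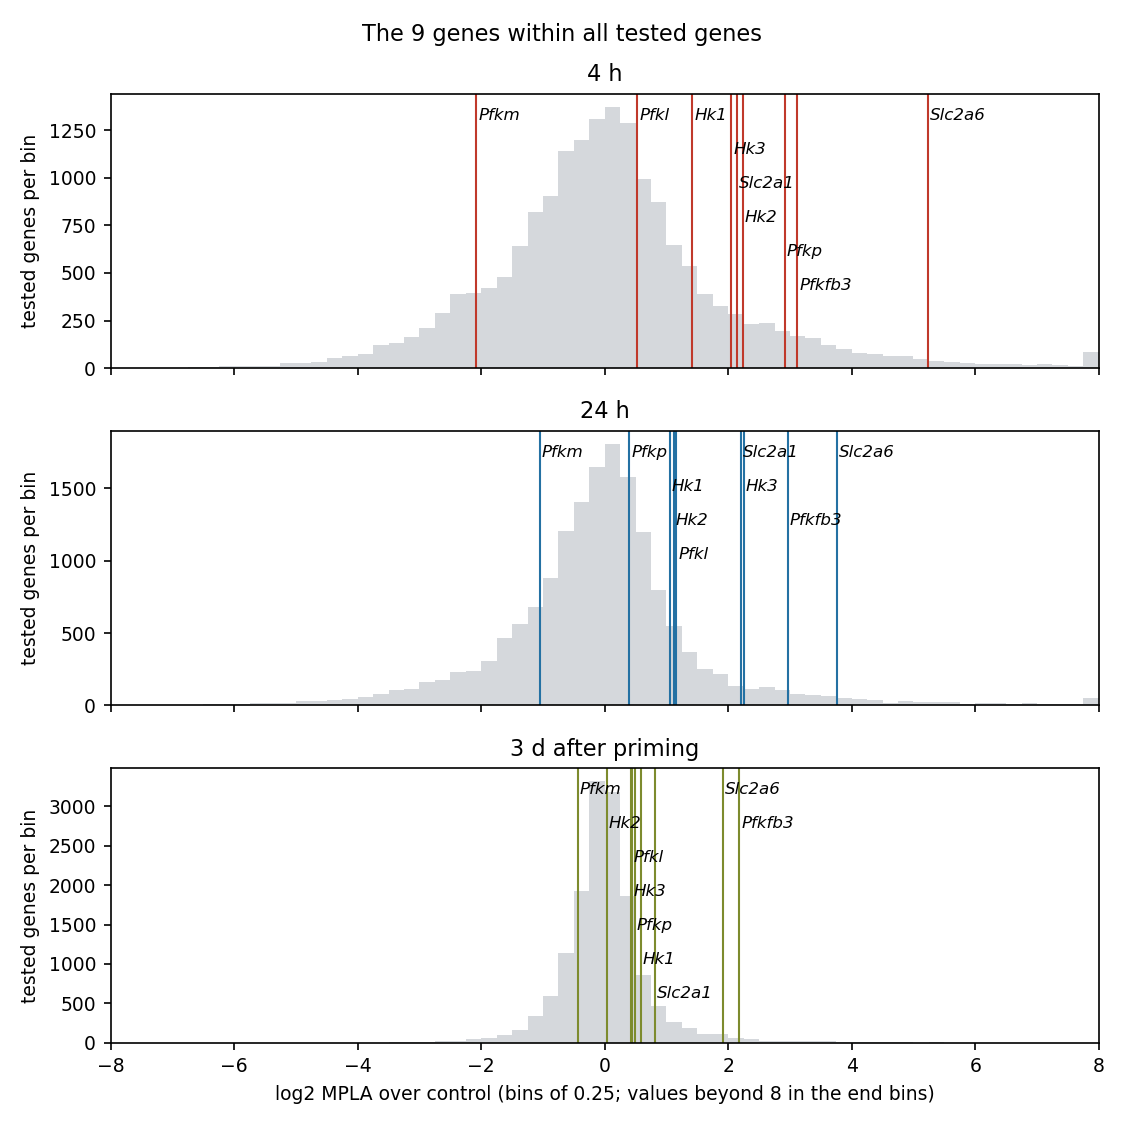
Number of tested genes (y axis) by log2 change of MPLA over control (x axis, bins of 0.25) at 4 h, 24 h and 3 d after priming, with a vertical line for each of the 9 genes. The grey distribution of DESeq2 values narrows at 3 d, where Slc2a6 and Pfkfb3 at 1.91 and 2.18 stand in the right tail and the other 7 lie between -0.44 and 0.81. Whether the narrowing depends on the tool was not tested.

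The other glucose transporter genes Slc2a3, Slc2a8 and Slc2a9 were lower at 4 h and 24 h. Of the 11 other glucose transporters listed for comparison, 6 had an adjusted p at 4 h, 1 of which was higher and 3 lower in the authors' deposited table, where 31.8% of all tested genes were higher and 31.0% lower. Slc2a3, the GLUT3 gene, stood at -2.58 at 4 h (DESeq2 adjusted p = 7.51e-21), -0.51 at 24 h and -0.70 at 3 d, and the intracellular transporter gene Slc2a8 had -1.88, -2.05 and -0.40, in the authors' deposited tables. Both were called lower at every time with both tools. Slc2a4, the insulin-responsive transporter gene, was called higher at 4 h but listed at 0 in the controls. Slc2a9, a urate transporter gene, fell at 4 h (-0.95) and 24 h (-0.32) and rose at 3 d (0.25, DESeq2 adjusted p = 1.38e-04; 0.12 and not called with edgeR) in the authors' deposited tables. At 24 h 3 of the 4 tested transporters were lower, against 32.2% of all tested genes, and at 3 d 1 of 3 was higher and 2 were lower, against 29.5% and 25.8%.

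Among other hexose kinases, Adpgk, an ADP-dependent glucokinase, was at -0.11 at 4 h (DESeq2 adjusted p = 0.382), 0.61 at 24 h and 0.27 at 3 d in the authors' deposited tables, the last 2 called. The Pfkfb3 relatives Pfkfb2 and Pfkfb4 were lower at every time. Pfkfb2 was at -2.49, -0.91 and -0.23 and Pfkfb4 at -2.27, -0.79 and -0.55 at the 3 times in the authors' deposited tables, all called lower, and Pfkfb1 was at 0.06, -0.06 and -0.23 without a DESeq2 call (lower with edgeR at each time). Tigar, whose product degrades the same fructose bisphosphate, rose at every time (1.30, 1.46 and 1.08, all called with both tools) in the authors' deposited tables. Of 6 genes listed for phosphatases and a glucose phosphate carrier that oppose these steps, 3 had a row and 2 an adjusted p in each table. Both were called lower at 4 h and 24 h, against 31.0% and 32.2% of all tested genes, and 1 at 3 d, against 25.8%. The transporter gene Slc37a4 was at -1.33, -0.72 and -0.22, called at every time, and the phosphatase gene G6pc3 at -0.47, -0.41 and 0.12, called at the first 2 times, in the authors' deposited tables.

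Of 19 tested genes of lower glycolysis and lactate handling, 8 were higher and 6 lower at 4 h, and the median was 0.01, all from the authors' deposited table, against 31.8% and 31.0% of all tested genes. The edgeR columns gave 2 and 16, against 13.5% and 50.1%. At 24 h 11 were higher and 7 lower with a median of 0.53, against 32.4% and 32.2%, and at 3 d 10 and 5 with a median of 0.35, against 29.5% and 25.8%. With edgeR 10 were higher and 9 lower at 24 h, against 16.2% and 41.8%, and 10 and 7 at 3 d, against 15.5% and 27.7%. The medians of the 9 genes described here were 2.14, 1.16 and 0.49 at those times, and those of all tested genes -0.04, -0.05 and -0.02. The lower glycolysis list also held Gpi1, the isomerase gene of the step between hexokinase and phosphofructokinase. Gpi1 was at -0.71, -0.28 and -0.05 at the 3 times, called lower at 4 h and 24 h with DESeq2. With edgeR Gpi1 was called lower at every time (-1.64, -0.69 and -0.18). Eno2, an enolase gene, stood at 1.37, 1.67 and 1.92 at the 3 times, and Slc16a3, a lactate exporter gene, at 0.65 (-0.29 with edgeR), 1.34 and 1.13, in the authors' deposited tables. Slc16a1, another lactate carrier gene, was at 2.01 at 4 h and then lower (-0.71 and -0.45). Aldoc (-2.95), an aldolase gene, and Ldhb (-2.74), a lactate dehydrogenase gene, were lowest at 24 h, while Eno3 (-1.39) and Slc16a7 (-1.51) were lowest at 4 h and Pgam2 (-1.08) and Slc16a7 (-0.66) at 3 d in the authors' deposited tables. Other genes of the same enzymes were called higher at 24 h and 3 d with both tools. They were Aldoa (0.86 and 0.73), Pgam1 (0.62 and 0.35), Eno1 (0.92 and 0.64) and Ldha (1.05 and 0.59). At 4 h edgeR called each of them lower, while DESeq2 called Eno1 (0.15) and Ldha (0.26) higher.

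**Figure D4:**
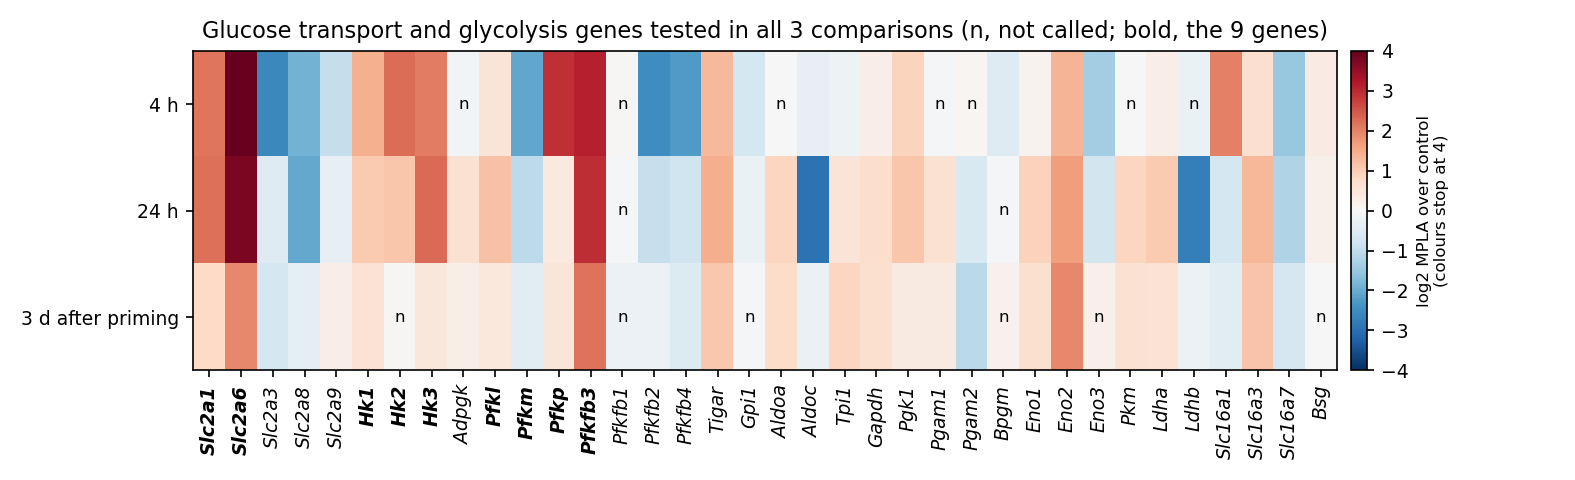
Log2 change of MPLA over control (colour, red higher and blue lower, stopping at 4) for glucose transport and glycolysis genes with an adjusted p in all 3 tables (x axis, grouped by step from transport to lactate carriers) at each time (y axis). The letter n marks genes not called with DESeq2, and bold names are the 9 genes. Gpi1 stands with the lower glycolysis genes. Within the transporter, phosphofructokinase and Pfkfb groups red and blue columns stand side by side.

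Of 17 tested genes of glycogen and hexose side paths, 4 were higher and 9 lower at 4 h, 8 and 7 of 16 at 24 h, and 7 and 4 of 16 at 3 d in the authors' deposited tables. The shares of all tested genes were 31.8% and 31.0%, 32.4% and 32.2%, and 29.5% and 25.8%. With edgeR 1 was higher and 13 lower at 4 h, 7 and 7 at 24 h, and 6 and 7 at 3 d. The edgeR shares of all genes were 13.5% and 50.1%, 16.2% and 41.8%, and 15.5% and 27.7%. Gfpt1, the entry enzyme of hexosamine synthesis, rose at every time (2.46, 1.64 and 0.92). Pmm1, of mannose phosphate metabolism, was at -1.50 at 4 h and Gbe1 (0.85, not called with edgeR) the second highest of those called, with Pgm2 (1.09 and 0.62) second highest later, in the authors' deposited tables. Pygl, glycogen phosphorylase, was at -2.18 at 24 h and -0.43 at 3 d, and Gyg, glycogenin, at -1.72 and -0.92.

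Of the regulators of glucose genes, 14 of 28 tested were higher and 11 lower at 4 h, 12 and 11 of 26 at 24 h, and 13 and 11 of 26 at 3 d in the authors' deposited tables, with medians of 0.22, -0.04 and 0.14. The shares of all tested genes were again 31.8% and 31.0%, 32.4% and 32.2%, and 29.5% and 25.8%. The edgeR columns gave 7 higher and 19 lower at 4 h, 6 and 17 at 24 h, and 11 and 12 at 3 d, against 13.5% and 50.1%, 16.2% and 41.8%, and 15.5% and 27.7% of all genes. Hif1a, the hypoxia-inducible factor gene, was at 1.76, 1.04 and 0.71 at the 3 times in the authors' deposited tables. Myc was at 1.47 at 4 h (DESeq2 adjusted p = 4.87e-27), -0.22 at 24 h (0.198) and 0.26 at 3 d (0.0358) there. With edgeR Myc was called lower at 24 h (-0.63, edgeR adjusted p = 2.80e-09) and not called at 3 d. Txnip, whose product restrains glucose uptake, fell at every time (-2.05, -2.65 and -0.89). Arrdc4, from the same list, was called higher with DESeq2 at every time (1.87, 0.53 and 0.39), though not with edgeR at 24 h. Epas1, a relative of Hif1a, was at -4.61 at 24 h and -1.66 at 3 d, the lowest of the list at both times. At 4 h Nfkb1 (3.47) was highest and Foxo3 (-4.35) and Prkag2 (-4.10), a subunit gene of the AMP-activated kinase, lowest, in the authors' deposited table. Mlx (1.54) was highest at 24 h, and Hif1a with Prkaa2 (0.71 each) at 3 d.

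For each of the 9 genes the protein-coding genes with the most similar trio of log2 changes were found by Euclidean distance over 12367 genes tested in all 3 tables. Slc2a6 was nearest to Helz2 (5.46, 3.78 and 2.10 at the 3 times, distance 0.293), Irgm1 (0.310) and Jak2 (0.341), and 8 genes lay within 0.5. Pfkfb3 had only 3 genes within 0.5, Lmo4 (3.31, 3.32 and 1.96, distance 0.464), Spaca6 (0.483) and Slc31a2 (0.498). Nearest to Hk3 were Psme1 (2.13, 2.35 and 0.51, distance 0.143), Rab32 (0.179) and Kctd12 (0.196), among 27 within 0.5. Pfkp had 24 within 0.5, led by Hivep2 (2.89, 0.36 and 0.41, distance 0.101), Socs7 (0.144) and Kremen1 (0.164). The profiles of Slc2a1 and Hk2 were commoner, with 38 and 103 genes within 0.5, led by Mrpl52 (0.176), Dock4 (0.182) and Cox18 (0.206), and by Phospho2 (0.124), Sertad1 (0.155) and Snx2 (0.156). Those of Hk1, Pfkl and Pfkm were commonest, with 246, 303 and 189 genes within 0.5. Close to Hk1 were Higd1a (0.0813) and Acbd3 (0.0998). Nearest to Pfkl were Zfp503 (0.110), A630033H20Rik (0.110) and Abcc5 (0.127), and nearest to Pfkm were Lrwd1 (0.0482), 2700049A03Rik (0.0946) and Zfp524 (0.112). These are values from the authors' deposited tables, and a short distance says only that the changes were alike.

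The label of the cells was read against marker genes. All 10 macrophage markers had an adjusted p in every table. Of these 10, the authors' deposited tables called 6 higher and 3 lower at 4 h, 4 and 6 at 24 h, and 5 and 5 at 3 d, from Fcgr1 (3.70 at 24 h) to Mrc1 (-5.67 at 24 h). The edgeR columns gave 3 and 7, 3 and 7, and 4 and 5. The shares of all tested genes, given above for each tool, apply to all these marker counts. Of 6 T cell and 6 erythroid markers, 5 of each had no row at 4 h. For the T cell markers 4 had no row at 24 h and 3 had none at 3 d. Cd4, the only T cell marker tested, was at -0.91 at 4 h, -1.35 at 24 h and 1.01 at 3 d. It was called with both tools at every time, lower at the first 2 and higher at 3 d. Of 6 dendritic cell markers tested at 4 h, 3 were called higher with DESeq2, but 1 higher and 1 lower with edgeR. At 24 h 1 of 4 was higher and 1 lower, and at 3 d 1 of 4 was lower (Clec9a, -1.79). The edgeR columns, which cover all 6, gave 1 higher and 3 lower at 24 h, and 0 and 3 at 3 d. Of 6 stromal markers tested at 4 h, 3 were higher with DESeq2, and 3 higher and 1 lower with edgeR. Of 5 B cell markers tested at 4 h 1 was lower (2 with edgeR), at 24 h 2 of 3 were lower, and at 3 d Cd79b was higher (0.47, DESeq2 adjusted p = 0.00744) and Ighm lower. Of 8 neutrophil markers, 3 were tested at 4 h and 2 at each later time, and Camp was the only 1 called, higher at 24 h (3.49) and 3 d (1.43), while S100a8 was at -0.21 and -0.31 and not called. With edgeR Camp was at 3.61 and 2.97, so its 2 values lay closer together than with DESeq2. Of the 6 markers of stroma, Dcn was called higher at every time and listed at 0 in the controls. At 3 d Dcn was at 4.70 with DESeq2 and 9.81 with edgeR. The stromal markers did not move together. At 24 h 2 of 4 tested were higher with DESeq2, and 2 higher and 2 lower (Col1a1 and Col1a2) with edgeR. At 3 d 1 of 5 was higher with DESeq2, and 2 higher and 1 lower with edgeR. Pdgfrb was called higher at 4 h (2.58) and 24 h (1.28), but at 3 d it stood at -0.78 and was called lower with edgeR alone. The B cell marker Ighm was at -1.75, -8.98 and -6.42 at the 3 times, all values in the authors' deposited tables. Levels of these markers cannot be read from the tables, and their part in the changes of the 9 genes was not tested.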

How the data were processed

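RNA-seq was made from 12 macrophage libraries, 3 in each of 4 groups. The submitters' processing notes name TopHat2, HTSeq, DESeq2, edgeR and the build mm10, without versions, and the annotation and counting settings are not given in the sources used here. The 3 deposited tables compare the controls with each MPLA group. Per the file headers, the authors gave log2 fold changes and p-values from DESeq2 and edgeR, an unscaled log2 ratio, the baySeq likelihood of no change with its error rate, and ranks as a score, which were not used. The deposited log2 values are control over MPLA, read from the group order and from Il6 and Nos2 (-12.55 and -12.13 as deposited at 4 h), and were turned here.

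Genes were called at a DESeq2 adjusted p under 0.05 over all genes of the authors' deposited table, with NA kept as not tested. Standard errors were the log2 change over the normal quantile of p, with 95% intervals. No model was fitted, because the tables hold no counts, and tables normalized separately were not tested against each other. Named genes were the 9 members, the up to 2 called genes with the largest rise and fall in each list and table, Hif1a, Myc and Txnip, and the 3 nearest genes of each member. A few genes that this rule names are not reported here. Marker genes, overlapping genes, Aldoa, Pgam1, Eno1, Ldha and Arrdc4 were named after their values were seen. The members and lists were chosen with earlier results of these data known. Alternatives were the authors' edgeR columns, the baySeq error rate, adjustment over all p-values with no NA filter, all 3 methods together, an adjusted p under 0.01, a 2-fold minimum, the unscaled ratio and centring on the median. Coordinates are from GENCODE M21 and start windows from RefSeq, both GRCm38. Python 3.11.15, pandas 2.3.3 and scipy 1.17.1 were used, and the adjustment and error functions were tested on simulated data.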

Additional observations from a re-analysis of the deposited data

How the results depend on the processing

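Of the 36 recounts of called members, 31 stayed within 1.5 times the value given. The exceptions were the lower count at 4 h, which was 2 in place of 1 in the edgeR columns because Pfkl joined Pfkm, the higher count at 3 d, which was 2 in place of 7 with a 2-fold minimum, and the lower count at 3 d, which was 0 in place of 1 by baySeq, by all 3 methods together and with a 2-fold minimum. Those 3 counts of 0 rest on Pfkm alone, called by DESeq2 and edgeR. Several of the 36 recounts could hardly move. Called members had a DESeq2 adjusted p of 3.38e-07 or lower, and Hk2 at 3 d had 0.578. An adjusted p under 0.01 therefore could not change a count, and adjustment with no NA filter hardly could. The baySeq recounts took their direction from DESeq2, so the 31 is no measure of how steady the counts are. Signs turned for Pfkl at 4 h (-0.41 with edgeR, -0.63 unscaled), for Pfkp at 24 h (-0.02 with edgeR, -0.11 unscaled), for Hk2 at 3 d (-0.09 with edgeR, against 0.04, neither called) and for Pfkm at 3 d (0.66 unscaled, where the depth read against edgeR was 2.32 times that of the controls). The other 24 of 27 log2 changes kept sign and call with edgeR, and the 18 differences between members moved by at most 0.006. Those differences cancel the nearly constant gap between the tools in each table, so edgeR is no separate check of them. Counts in the pathway lists moved by more than 1.5 times with edgeR in these cases: regulators higher at 4 h 14 to 7 and lower 11 to 19, higher at 24 h 12 to 6 and lower 11 to 17, lower glycolysis at 4 h 8 to 2 higher and 6 to 16 lower, side paths 4 to 1 higher at 4 h and 4 to 7 lower at 3 d, other transporters 1 to 0 higher at 3 d (Slc2a9), and Adpgk lower at 4 h with edgeR alone. Counts with edgeR cover every gene with an edgeR adjusted p. No paired analysis was possible because the tables hold comparisons and no values per library, and leaving out each library in turn was not run for the same reason. Depth per gene is unknown, and p-values stored as 0 set no exact error.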
